A study of Homo sapiens with 5 samples.

Results

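The CXC chemokines are small secreted proteins named for a cysteine pair with a single residue between, and they steer white blood cells along gradients. CXCL1, CXCL2, CXCL3, CXCL5, CXCL6 and CXCL8 draw neutrophils through the receptor CXCR2, and some of them also through CXCR1. CXCL10 acts on activated T cells through CXCR3, CXCL12 acts through CXCR4, and CXCL16 is made as a membrane protein that binds CXCR6. In tumor cells several of these genes are known targets of NF-kB and AP-1 transcription factors.

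RNA sequencing was done on HLF cells, an established hepatocellular carcinoma line, in 5 conditions with 1 listed sample each. USP28-Ctrl cells carried a control guide (sgCtrl), and USP28-KO cells a guide against the deubiquitinase gene *USP28* (sgUsp28), transfected with Cas9 and grown from single picked clones. The other 3 conditions were sgUsp28 cells with a lentiviral control vector (pRRL-Ctrl), with HA-tagged wildtype USP28 (USP28-WT), or with HA-tagged USP28-M, which carries a point mutation that disrupts dimerization. No cells were treated, and the last 3 conditions share the knockout background. How many clones or cultures stand behind a condition is not given in the sources used here.

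CXC chemokine genes were taken by symbol where each of the 3 deposited tables listed them, and 5 of the 9 genes proposed met this rule, CXCL1, CXCL2, CXCL5, CXCL8 and CXCL16, of 10976 genes common to all tables. The family was chosen by the fold changes of CXCL1 and CXCL5 in the comparison columns of these tables. These columns hold the authors' own comparisons and were not used here, so no change between conditions is given and nothing was tested. CXCL3 was listed in the USP28-WT and USP28-M tables only. CXCL6, CXCL10 and CXCL12 had no row in the tables used here, and their levels were not analysed.

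The promoters are shown first because 5 of them share the same 11 letters. RefSeq promoters (GRCh38.p14; 250 bases before to 50 after the start of each gene) were found for 8 of the 9 genes, CXCL16 not among them. Each line gives 30 bases, 5′ to 3′ on the strand of the gene, with a match to the NF-kB consensus in capitals.

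CXCL1: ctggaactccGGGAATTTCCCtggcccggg

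CXCL2: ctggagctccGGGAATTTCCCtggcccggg

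CXCL3: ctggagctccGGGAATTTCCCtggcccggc

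CXCL5: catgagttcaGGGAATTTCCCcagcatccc

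CXCL6: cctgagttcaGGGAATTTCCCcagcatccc

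In CXCL1 this window lies at chr4:73869304-73869333 on the plus strand, and the match begins 79 bases before the RefSeq start. The windows of CXCL2 (chr4:74099254-74099283), CXCL3 (chr4:74038749-74038778) and CXCL5 (chr4:73998749-73998778) lie on the minus strand, with the match 78, 79 and 91 bases before the start. That of CXCL6 (chr4:73836578-73836607, plus strand) begins 90 bases before it. The 11 letters hold the 10-letter consensus on both strands, as a pair of overlapping matches. GENCODE release 29 begins the genes CXCL2, CXCL3, CXCL5 and CXCL6 farther upstream than RefSeq, by 98, 118, 102 and 181 bases, and the match lies downstream of that earlier start. For CXCL1 the starts are the same.

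CXCL8, which encodes interleukin 8, had no match to the full consensus. It held the 9-letter core of the shared site, GGAATTTCC, 91 bases before the start, and a match to the AP-1 letters TGANTCA 137 bases before it. In both lines the capitals mark the match.

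CXCL8 core: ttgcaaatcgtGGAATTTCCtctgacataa

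CXCL8 AP-1: taggaagtgtgaTGACTCAggtttgccctg

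These windows span chr4:73740467-73740496 and chr4:73740420-73740449 on the plus strand, both upstream of the GENCODE start. CXCL8 was also the only gene of the 8 with the letters TATAAA on its own strand, 31 bases before the RefSeq start. GENCODE begins CXCL8 63 bases farther upstream, so these letters lie downstream of that earlier start. The NF-kB consensus, searched on both strands, was present in 6 of the 8 promoters and in 5.91% of all 35116 RefSeq promoters. The sixth is CXCL10, with matches 177 and 122 bases before the start, and CXCL12 had none. The upstream bases of CXCL1, CXCL2 and CXCL3 resemble each other, as do those of CXCL5 and CXCL6 (identities below). The matches in these promoters are therefore not separate cases. The core, chosen after the sequences had been read, was present in 7 of the 8 and in 0.461% of all promoters. Its letters are part of the site shared by CXCL1, CXCL2, CXCL3, CXCL5 and CXCL6, so their matches were fixed by this choice. For AP-1 the count was 1 of the 8, beside 7.71% of all promoters, and for TATAAA 1 of the 8, beside 7.33%. A match describes letters in this window, and binding of a factor was not measured in these data.

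The genes of the shared site and CXCL8, which holds only its core, lie in the same region. CXCL8, CXCL6, CXCL1, CXCL5, CXCL3 and CXCL2 come in this order within 359 kb of chromosome 4 (GRCh38, 73740506 to 74099293). The first 3 lie on the plus strand and the last 3 on the minus strand. Which other genes lie between them was not looked at. CXCL16 lies on chromosome 17 and its longest transcript has 6 exons. Over the 250 bases before the start, CXCL5 and CXCL6 were 85.3% identical, CXCL1 and CXCL3 81.4%, CXCL2 and CXCL3 73.4%, and CXCL1 and CXCL2 70.1%. The other 24 pairs lay between 41.6% and 54.2%.

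In the USP28-Ctrl and USP28-KO libraries, the 5 CXC chemokines took few reads compared with most genes. The values are the authors' averages of log2 CPM (CPM, the reads of a gene scaled to the size of the library) over all libraries of the fit, without a value for either condition, and they are not corrected for transcript length. The average was 4.30 for CXCL5, 4.14 for CXCL2, 3.16 for CXCL1, 3.05 for CXCL8 and 2.58 for CXCL16. All 5 lay below the median gene of that table, at 5.33, and 26.8% of its 11102 genes lay below CXCL5 and 1.56% below CXCL16. CXCL16 thus stood close to the lower end of the table, whose lowest gene had 1.70.

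In the libraries with control vector, USP28-WT and USP28-M, which share a single average per gene, CXCL5 had 4.08, CXCL1 4.001, CXCL8 3.54, CXCL2 3.50, CXCL16 2.199 and CXCL3 2.03. All 6 were again below the median gene, at 4.90 of 12342 genes. The lowest gene of these tables had 0.40, and 9.62% of all genes lay below CXCL3 and 11.3% below CXCL16. These tables list more genes at low levels, so their percentiles cannot be set beside those of the first table. Among the genes with a symbol listed in every table, 3.03% lay below CXCL16 here and 1.07% in the first table. Below CXCL2 lay 25.9% of all genes here and 16.2% of that list, and 26.4% and 16.7% below CXCL8. In bulk RNA, fewer cells that express a gene and less of its RNA per cell cannot be told apart.

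**Figure D1:**
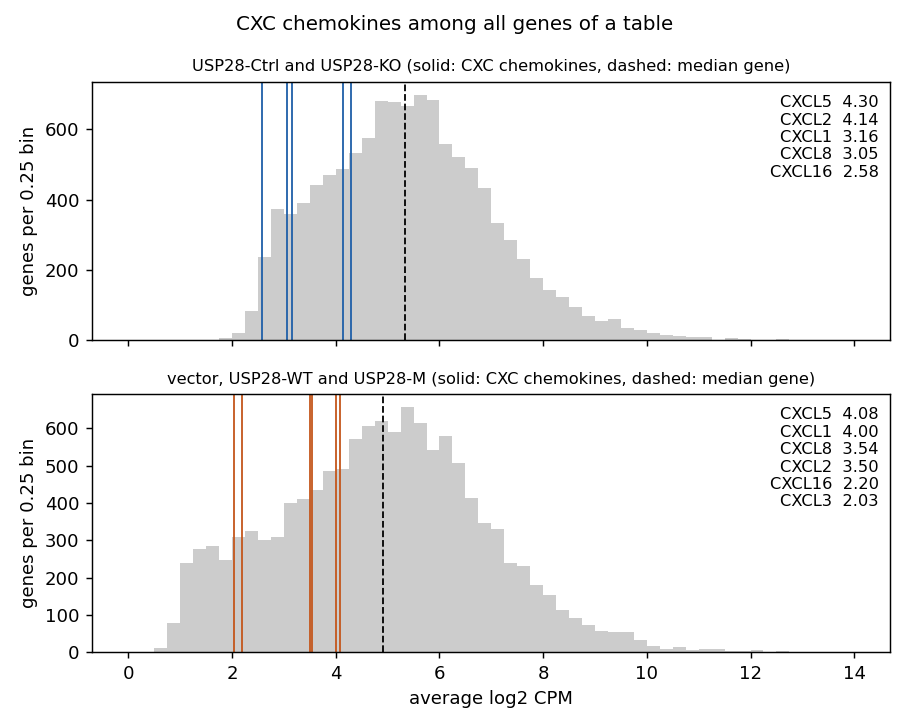
Distribution of the average log2 CPM over all genes, with the USP28-Ctrl and USP28-KO table above and the tables with vector, USP28-WT and USP28-M below; solid lines mark the CXC chemokines, dashed lines the median gene. Each chemokine lies to the left of the median, from 2.58 to 4.30 above and from 2.03 to 4.08 below.

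The reads behind these averages were worked out from the spacing of the lowest CPM values. For USP28-Ctrl and USP28-KO a single read was worth 0.130 CPM, which corresponds to about 7690000 reads over all libraries together, and for vector, USP28-WT and USP28-M it was worth 0.0328 CPM, or about 30500000 reads. Of the 1100 lowest genes, 96.8% and 68.5% lay within 0.1 of a whole read, so the estimate is less certain in the second fit. CXCL5 then had about 152 reads in the first fit and 516 in the second, CXCL2 136 and 345, CXCL1 69 and 488, CXCL8 64 and 354, and CXCL16 46 and 140. CXCL3 had 125 in the second. These numbers include the count that edgeR adds to each library, which was not subtracted and whose size over all libraries is not known here. The 95% intervals given next are exact Poisson intervals for levels and normal approximations on the log scale for ratios and differences. They take the estimated reads, with the added count included, as counts, so they may be too narrow at low levels. They cover counting error only and not the spread between libraries.

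Compared per length of the longest transcript, CXCL2 was highest in the USP28-Ctrl and USP28-KO libraries, with 14.5 CPM per kb (interval 12.2 to 17.2). CXCL1 followed with 8.16 (6.36 to 10.3) and CXCL5 with 7.77 (6.60 to 9.13), and their ratio was 1.05 (0.791 to 1.40), so that at this length they did not differ beyond counting error. CXCL8 had 4.87 (3.76 to 6.23) and CXCL16 2.69 (1.97 to 3.59) CPM per kb. The median gene had 11.1 CPM per kb, and CXCL2 was the 1 chemokine of 5 above it. These comparisons rest on the transcript chosen. The median length was taken over all GENCODE transcripts of a gene, with no filter by transcript type. It was 577 bases for CXCL2 and 700 for CXCL8, whose longest transcripts have 1218 and 1705. With the median transcript length of each gene CXCL2 stayed highest, at 30.5 CPM per kb, but the median gene then had 34.9 and 0 of 5 chemokines were above it. CXCL8, at 11.9, then came before CXCL1, at 10.7, and CXCL5, at 7.77. The ratio of CXCL1 to CXCL5 became 1.38 (1.04 to 1.83), outside counting error, and that of CXCL5 to CXCL8, 1.59 (1.19 to 2.14) with the longest transcripts, became 0.655 (0.489 to 0.877).

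In the libraries with vector, USP28-WT and USP28-M, CXCL1 was highest, with 14.6 CPM per kb (13.3 to 16.0), and CXCL2 second, with 9.30 (8.34 to 10.3). Their ratio was 1.57 (1.37 to 1.80). CXCL8 had 6.81 (6.12 to 7.56) and CXCL5 6.68 (6.11 to 7.28) CPM per kb, a ratio of 1.02 (0.891 to 1.17). CXCL3, at 2.49 (2.08 to 2.98), and CXCL16, at 2.07 (1.74 to 2.44), were lowest, with a ratio of 1.21 (0.947 to 1.53). At this length neither of the last 2 pairs differed beyond counting error. The median gene had 8.50 CPM per kb, and 2 of 6 chemokines, CXCL1 and CXCL2, were above it. With the median transcript length the median gene had 25.9 CPM per kb and 0 of 6 were above it. CXCL2, at 19.6, then came before CXCL1, at 19.2, with a ratio of CXCL1 to CXCL2 of 0.976 (0.850 to 1.12), within counting error. CXCL8, at 16.6, was then above CXCL5, at 6.68, by a ratio of 2.48 (2.17 to 2.84), and CXCL3, at 4.40, above CXCL16, at 3.09, by 1.42 (1.12 to 1.81), both outside counting error.

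**Figure D2:**
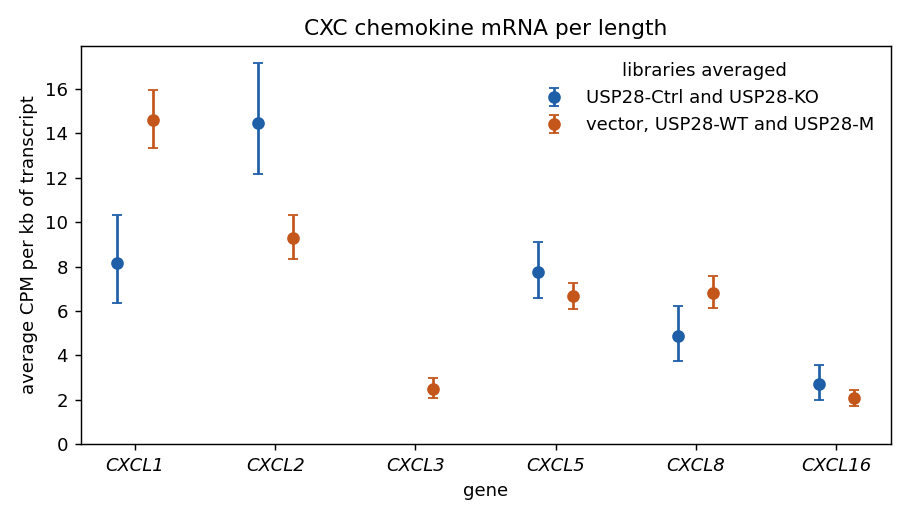
Average CPM per kb of the longest transcript for each CXC chemokine; blue points average the USP28-Ctrl and USP28-KO libraries, orange points those with vector, USP28-WT and USP28-M, and bars are 95% Poisson intervals for counting error only. CXCL2 is highest among the blue points at 14.5 and CXCL1 among the orange points at 14.6, where with the median transcript length CXCL2 comes first, and CXCL16 is at the lower end of both.

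CXCL1, CXCL2 and CXCL3 are close copies, and their reads may be shared. Among 1048 windows of 50 bases in the longest CXCL1 transcript, 60 (5.73%) also occur in that of CXCL2, and 48 of the 1592 windows of CXCL3 (3.02%) occur in CXCL2. The other 13 of 15 pairs of listed genes shared no such window. Only the longest transcript of each gene was compared, and that of CXCL3 has 2 exons where those of CXCL1 and CXCL2 have 4. Its level per length of the longest transcript, given above, rests on the same transcript. Windows of other CXCL3 transcripts were not tested. How reads that map more than once were counted, and the read length, are not given in the sources used here, so the split between these genes is uncertain by an amount that was not tested.

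The 2 fits were normalized separately and hold different conditions, so levels across them are set side by side without a test, and condition and experiment cannot be told apart. Averages with vector, USP28-WT and USP28-M were higher for CXCL1 by 0.84 on the log2 scale (counting interval 0.47 to 1.20) and for CXCL8 by 0.48 (0.098 to 0.87). They were lower for CXCL2, with a difference of -0.64 (-0.92 to -0.35). The differences of CXCL16, -0.38 (-0.86 to 0.098), and CXCL5, -0.22 (-0.48 to 0.043), were within counting error. Over the 10976 genes of both fits the median difference was -0.12, and 95% of genes lay between -1.54 and 0.87. All 5 chemokines fell inside this range, CXCL1 near its upper end at percentile 97.2. The average of CXCL1 relative to that of CXCL2 was thus higher in the libraries with vector, USP28-WT and USP28-M. The uncertain split of reads between these genes, given above, applies to this comparison too, and it was not tested.

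Of 8 receptors and scavengers of the family, CXCR1 to CXCR6, ACKR1 and ACKR3, none had a row in the tables used here. Neither had the other 8 CXC genes looked for, CXCL9, CXCL11, CXCL13, CXCL14, CXCL17, PPBP, PF4 and PF4V1. Of 6 genes for processing or presentation of chemokines, 5 were listed in each table and DPP4 in none. Among these, ADAM10, the protease that releases CXCL16 from the cell surface, had an average log2 CPM of 6.74 in the USP28-Ctrl and USP28-KO libraries and 6.18 in the others. ADAM17, another such protease, had 5.51 and 6.04. The heparan sulfate proteoglycan SDC1 had 4.99 and 5.74. SDC4, a further heparan sulfate proteoglycan, had 8.06 and 8.79, and MMP1, a collagenase, 10.74 and 11.06. Of the other chemokines, CCL2, which attracts monocytes, had 8.03 and 8.52. CX3CL1 had 3.60 and 4.17, CCL20 2.81 and 3.18, and CCL5 4.67 and 3.01. CCL28, at 0.96, was listed in the USP28-WT and USP28-M tables only, and CCL26 in none. The NF-kB subunit genes RELA (6.89 and 7.04) and NFKB2 (7.34 and 7.24) lay above at least 82.9% of genes in both fits, NFKB1 had 5.36 and 5.75 and RELB 4.75 and 5.72. REL, at 0.96, was listed in the USP28-WT and USP28-M tables only.

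USP28 itself had 5.15 in the USP28-Ctrl and USP28-KO libraries and 9.79 in those with vector, USP28-WT and USP28-M. This difference of 4.64 was the largest of the 10976 genes, and the vectors with USP28 are among the libraries averaged. Averages of USP28-Ctrl and USP28-KO together do not check the knockout. Of the hepatocyte markers 1 of 8 (FGB, 6.003) was listed in the USP28-KO table and 2 of 8 (FGB, 3.20, and SERPINA1, 1.88) in the others, and ALB, APOA1, APOB, TTR, AFP and HNF4A were in none. KRT8, KRT18 and VIM were among the highest genes, between 10.66 and 12.02, whereas EPCAM, CDH1 and KRT19 had no row. In all, 4 of 5 mesenchymal markers were listed in the USP28-KO table and 5 of 5 in the others, but not all at high levels. Besides VIM, CDH2 had 7.72 and 8.06, FN1 6.32 and 5.20, and COL1A1 4.47 and 2.84. THY1, at 1.65, was listed in the USP28-WT and USP28-M tables only. COL1A1 and THY1 lay below the median gene wherever they were listed. Of the leukocyte markers PTPRC and LYZ had no row, CD68, a lysosomal protein of many cells, had 6.86 and 7.73, and CD14 0.93 in the USP28-WT and USP28-M tables. The 3 endothelial markers PECAM1, VWF and CDH5 had no row.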

How the data were processed

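RNA of HLF cells in 5 conditions was sequenced after NEBNext library preparation. The submitters' processing notes name bcl2fastq 2.20, STAR 2.5.4, edgeR 3.26.8 and hg19, and the counting and the annotation are not given in the sources used here. The authors deposited 3 tables, for USP28-KO against USP28-Ctrl and for USP28-WT and USP28-M against the vector. Each holds an average log2 CPM per gene over the libraries of the authors' edgeR fit, and besides a fold change, a p-value and an adjusted p-value, in the last 2 tables also an F statistic. The latter columns are the authors' comparisons and were not used. The header of the first table is displaced by 1 field and was read accordingly. The USP28-WT and USP28-M tables gave the same average for all 12342 genes, from a single fit. The authors' filter and normalization could not be examined, and depth per library is unknown.

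Reads were worked out from the spacing of the 1100 lowest CPM values, a step tested on simulated whole reads, exact and blurred. The simulation drew a single pooled count per gene. It did not model libraries of unequal size, edgeR's averaging or the count that edgeR adds. Transcript lengths came from GENCODE release 29 and covered 98.4% of genes with a symbol in each fit. Promoters came from RefSeq (GRCh38.p14), and identities from global alignment. The AP-1, TATA box and 9-letter core searches were chosen after the sequences had been read. Proteins were not analysed here. Members and lists were chosen with earlier results of these data known. The family was chosen by the fold changes of CXCL1 and CXCL5, and its members were then taken by symbol. The text names all members and all genes of these lists. Scripts used Biopython 1.88, scipy 1.17.1, pandas 2.3.3, matplotlib 3.10.9 and numpy 2.4.6 under Python 3.11.15.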

Additional observations from a re-analysis of the deposited data

How the results depend on the processing

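With the median transcript length in place of the longest, 3 of 5 chemokines changed place in the order per length in the USP28-Ctrl and USP28-KO libraries and 2 of 6 in the others, and 9 of 11 levels left their counting interval. The ratio of CXCL5 to CXCL8 for USP28-Ctrl and USP28-KO then turned to 0.655, and that of CXCL1 to CXCL2 in the others to 0.976, while 3 ratios within counting error moved outside it. The chemokines above the median gene per length went from 1 to 0 and from 2 to 0. Ranked only among named genes listed in every table, 5 of 10 percentiles left their counting interval, all of them in the tables with vector, USP28-WT and USP28-M. With log2(CPM + 1), or centred on the median gene, the differences between fits kept their sign for each of the 5 genes, and 2 remained higher. With the 150 bases before the start in place of the whole window, 6 of 8 promoters still held the NF-kB consensus, beside 3.15% of all promoters. In CXCL10 only the match nearer to the start lies in this shorter window. The comparison of protein identity was not run. No paired analysis was possible because the tables hold averages over libraries and no test was made. Depth limits the lowest levels, where counting error alone was up to 14.7%.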
